A study of Mus musculus domesticus and Mus musculus molossinus with 8 samples.

Results

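Chemokines are small secreted proteins that steer migrating cells, and chemokine receptors are the G protein-coupled receptors that read them. The genes described here are the 61 of 23284 genes in the deposited tables whose symbol begins with Ccl, Cxcl, Cx3cl, Xcl, Ccr, Cxcr, Cx3cr, Xcr, Ackr or Ccrl followed by a digit. They comprise 39 ligands and 22 receptors. The choice used symbols alone and no measured value.

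Ligands bound to matrix or released as gradients engage receptors on leukocytes, and the receptors act through Gi proteins to turn the cytoskeleton towards the source. In the thymus, Ccl25, Ccl21 and Cxcl12 made by stromal cells draw progenitors in and position maturing thymocytes, which carry Ccr9, Ccr7 and Cxcr4. In the liver, Cxcl12 is made in the resting organ, whereas Cxcl1, Cxcl2 and Ccl2 are known as ligands induced by injury that attract neutrophils and monocytes.

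Polyadenylated RNA of liver and thymus was taken from 4 mice aged 8 weeks. One untreated mouse and 1 mouse injected intraperitoneally with 1.5 ug of MegaFasL were used of C57BL/6 (B6), the strain on which the mouse reference genome is built. The same was done for MSM/Ms (MSM), an inbred strain derived from Japanese wild mice. MegaFasL is a multimeric form of Fas ligand, the protein that triggers apoptosis through the receptor Fas. The untreated mice were unstimulated, the time between injection and harvest is not given in the sources used here, and no genetic modification is named for any mouse. Each of the 8 groups (strain, tissue and treatment) was thus 1 library, with both organs from the same mouse. Levels are FPKM, fragment numbers scaled by transcript length and library size. Values by library come in a fixed order unless stated otherwise: the untreated mice first (B6, then MSM), followed by the injected mice (B6, then MSM). Differences are on the log2(FPKM + 1) scale, which shrinks differences of low genes.

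Depth, read back from the spacing of low values, was 2.82 to 3.43 fragments per FPKM and kilobase in the thymus and 1.57 to 1.79 in the liver, so 1 fragment weighed more in the liver. One library stood apart: the MSM untreated thymus held 1174 FPKM of 11 airway secretory genes, against 1.22 to 7.29 in the other thymus libraries, and 3581 FPKM of 15 hepatocyte genes, against 68.5 to 255. Its sum of 10 B cell, plasma cell and lymph node genes was 142 FPKM, against 8.17 to 50.2, with the lymph node vessel gene Glycam1 at 67.9. It also held 1212 FPKM of 10 adipose and muscle genes, against 135 to 202.4, with the brown fat gene Ucp1 at 219.8, and 201.9 FPKM of 12 stromal genes, against 59.5 to 65.2. The B6 untreated liver held 30.4 FPKM of 15 lymphocyte genes, against 2.80 to 8.83 in the other livers. The tissue labels matched their defining markers, with Alb at 55240 to 86087 FPKM in the livers and the thymic epithelial gene Prss16 at 131 to 204 in the thymus libraries.

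The family is divided by the spacing of the first cysteines of the mature ligand. The stretches below, from the coding sequence of GENCODE M21 transcripts (GRCm38/mm10), are of the ligands that led the tissue and injection comparisons, with the codons of those cysteines in capitals. Cxcl1 (exon 2, chr5:90891472-90891528, plus strand) and Cxcl12 (exon 2, chr6:117171484-117171540, plus strand) hold 1 codon between the capitals and are CXC ligands. In Ccl2 (chromosome 11, plus strand, across exons 1 and 2) and Ccl25 (chromosome 8, plus strand, across exons 2 and 3) the capitals are adjacent, which makes them CC ligands.
Cxcl1: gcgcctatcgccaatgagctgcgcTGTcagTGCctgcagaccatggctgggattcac
Cxcl12: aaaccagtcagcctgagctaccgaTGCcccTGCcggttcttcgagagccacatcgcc
Ccl2: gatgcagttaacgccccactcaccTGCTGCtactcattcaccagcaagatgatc
Ccl25: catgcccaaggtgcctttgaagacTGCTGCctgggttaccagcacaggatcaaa

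Few members were abundant. Of the 61 genes, 48 reached 1 FPKM in a library, 21 reached 5 FPKM, 12 reached 10 FPKM and 5 reached 50 FPKM, while 7 were listed at 0 in every library. Those 7 were the ligands Ccl1, Ccl21b, Ccl21c, Ccl26 and Ccl27b and the receptors Ccr1l1 and Cxcr1. On the genome the members lie in groups, with 14 on chromosome 9, 14 on chromosome 11 and 11 on chromosome 5. The 5 most abundant were the ligands Ccl25, Cxcl12 and Ccl21a and the receptors Ccr9 and Cxcr4. Summed over all members, the thymus libraries held 448 to 629 FPKM (0.142% to 0.20% of all FPKM) and the livers 186 to 233 FPKM (0.0271% to 0.0366%). Between 12 and 20 members were listed at 0 in a thymus library, and between 30 and 39 in a liver library. By role, 6 of 12 homeostatic ligands and 4 of 8 homeostatic receptors reached 5 FPKM in a thymus library, against 1 of 11 inflammatory CC ligands and 0 of 5 neutrophil-attracting ligands.

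**Figure D1:**
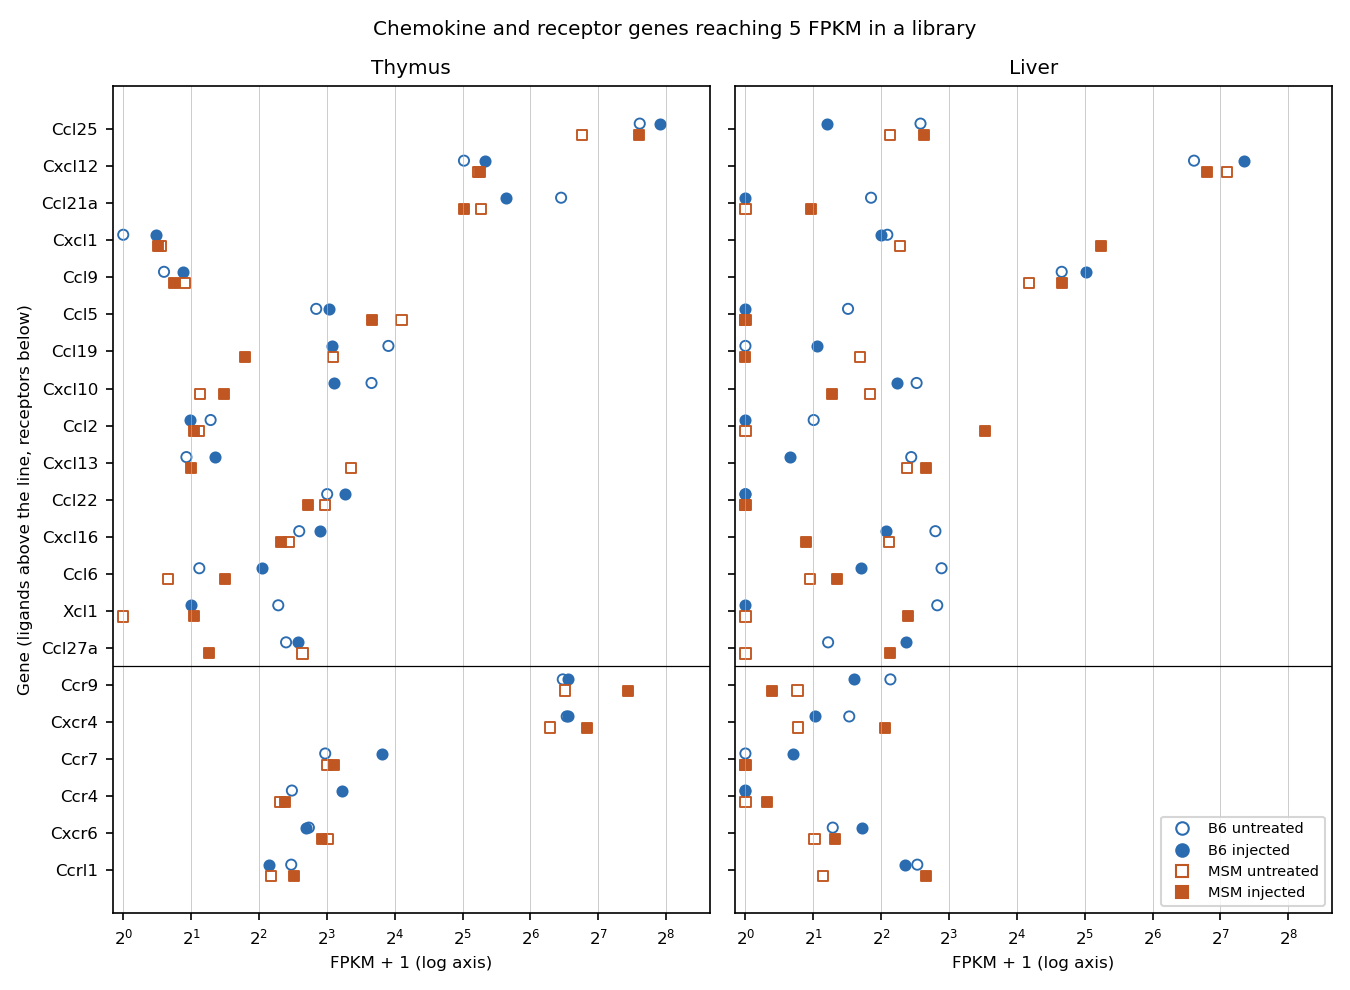
Level (FPKM + 1, log axis) of the 21 chemokine and receptor genes that reached 5 FPKM in a library, in the thymus (left) and the liver (right); each point is 1 library, circles are B6, squares MSM, open untreated and filled injected. Ccl25, Ccr9, Cxcr4 and Ccl21a sit to the right in the thymus, Cxcl12 in both organs and Ccl9 in the liver; the filled MSM square of Cxcl1 in the liver stands at 36.6 FPKM.

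Ccl25 (chr8:4325210-4360020), the thymic and gut ligand of Ccr9, was the most abundant member in the thymus, at 195, 107, 239 and 193 FPKM. In the livers it was 4.98, 3.38, 1.3 and 5.20 FPKM, below every thymus library. Ccr9 (chr9:123678439-123784330), its receptor, was 88.1, 90.1, 93.0 and 172 FPKM in the thymus, where the MSM injected library was the highest. In the livers Ccr9 was 3.40, 0.70, 2.02 and 0.31 FPKM, with both MSM livers below both B6 livers. The liver minus thymus difference was -5.33 ± 0.36 for Ccl25 and -5.52 ± 0.44 for Ccr9, each in 4 of 4 mice. Limma's adjusted p (Benjamini-Hochberg) was 1.1e-04 and 1.8e-04. Here and below, ± gives limma's moderated SE, which draws a gene's spread over the mice towards that of genes of like level.

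Cxcr4, the receptor that keeps early thymocytes near Cxcl12 in the cortex, was 91.8, 76.9, 92.5 and 114 FPKM in the thymus and 1.89, 0.72, 1.03 and 3.16 FPKM in the livers. The tissues did not overlap, and the difference was -5.20 ± 0.20 (adjusted p = 6.6e-05, limma). Its ligand Cxcl12 went the other way, at 31.5, 36.5, 39.4 and 37.1 FPKM in the thymus and 96.7, 136, 161 and 111 FPKM in the livers. The difference of Cxcl12 was 1.75 ± 0.17 (adjusted p = 3.3e-04), and it was the most abundant member in every liver library. Ligand and receptor of this pair were therefore highest in different organs, whereas Ccl25 and Ccr9 were both highest in the thymus. The thymocyte genes Rag1 and Cd3g ran at 199 to 587 and 165 to 276 FPKM in the thymus against 0.60 to 9.88 and 0 to 4.45 in the livers. In bulk tissue, fewer cells of a type and less RNA per cell cannot be told apart.

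Ccl21a and Ccl19, the ligands of Ccr7 that bring maturing thymocytes to the medulla, were also thymic. Ccl21a was 86.6, 37.7, 49.0 and 31.6 FPKM in the thymus, and 2.61, 0, 0 and 0.96 FPKM in the livers. Ccl19 was 14.0, 7.53, 7.45 and 2.48 FPKM in the thymus and at most 2.23 in a liver. Ccr7 itself was 6.87, 6.99, 13 and 7.60 FPKM in the thymus and was listed at 0 in every liver but the B6 injected one, at 0.63. Differences were -4.89 ± 0.30 for Ccl21a, -2.28 ± 0.43 for Ccl19 and -3.05 ± 0.20 for Ccr7, all past the threshold (adjusted p = 8.8e-05, 0.0051 and 1.0e-04). Each reached the mean of 1 FPKM needed for testing in the thymus alone, so these p-values do not support a direction.

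Reads of Ccl21a cannot be separated with confidence from its copies. Ccl21b and the predicted genes Gm10591, Gm13304 and Gm21541 each matched 99.5% of the 402 coding nucleotides of Ccl21a, with 2 differences, T84A and C194T (Ccl21a base first, counted from 1 at the first coding base), and a longest identical run of 208 nucleotides. The stretches around C194T, in exon 3 of Ccl21a (chr4:42773499-42773548, minus strand) and of GENCODE's Ccl21b (chr4:42256137-42256186, plus strand), show how alike they are, with the differing base in capitals. The locus given for Ccl21b in the deposited tables (chr4:42612122-42613253) overlaps GENCODE's Gm10591 (chr4:42612195-42612860) and not GENCODE's Ccl21b, whose sequence is printed. Ccl21b and Ccl21c were listed at 0 in every library, so the value of Ccl21a may hold reads of several copies.
Ccl21a: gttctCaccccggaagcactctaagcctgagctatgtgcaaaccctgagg
Ccl21b: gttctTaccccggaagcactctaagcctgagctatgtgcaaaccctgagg

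Ligands and receptors known from dendritic cells and mature thymocytes formed a lower tier. Ccl22, a ligand of Ccr4, was 7.03, 6.82, 8.66 and 5.58 FPKM in the thymus and was listed at 0 in all 4 livers, where 3 fragments would correspond to 0.830 to 0.948 FPKM. Ccr4 was 4.6, 3.97, 8.37 and 4.22 FPKM in the thymus and at most 0.25 in a liver. Differences were -2.99 ± 0.22 for Ccl22 and -2.52 ± 0.27 for Ccr4 (adjusted p = 1.4e-04 and 5.1e-04, limma). Ccl5, a ligand made by T cells and natural killer cells, was 6.18, 16.2, 7.22 and 11.7 FPKM in the thymus and 1.85, 0, 0 and 0 in the livers (-3.03 ± 0.47, adjusted p = 0.0022). Ccl22, Ccr4 and Ccl5 reached the mean of 1 FPKM needed for testing in the thymus alone, so their p-values do not support a direction. Cxcr6, the receptor of Cxcl16 on T and natural killer T cells, was 5.66, 7.12, 5.44 and 6.64 FPKM in the thymus and 1.02 to 2.30 in the livers (-1.51 ± 0.24, adjusted p = 0.0025).

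Ccl9 and Cxcl1 were the other liver members. Ccl9, a CC ligand of Ccr1 made by myeloid cells, was 24.3, 17.1, 31.3 and 24.5 FPKM in the livers and 0.52 to 0.88 FPKM in the thymus libraries. Its difference was 3.84 ± 0.22 (adjusted p = 8.2e-05). Cxcl1, which attracts neutrophils through Cxcr2, was 3.26, 3.87, 2.98 and 36.6 FPKM in the livers and 0, 0.47, 0.40 and 0.43 FPKM in the thymus. Every liver was above every thymus library, with a difference of 2.51 ± 0.56 (adjusted p = 0.0094). Ccl9 and Cxcl1 reached the mean of 1 FPKM needed for testing in the liver alone, so their p-values do not support a direction. Without the MSM injected mouse the difference of Cxcl1 was 1.77 ± 0.28 (adjusted p = 0.0063). The receptors of these ligands were low in both organs: Ccr1 did not exceed 0.34 FPKM and Cxcr2 did not exceed 1.35 FPKM in a library.

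Over the family, 32 members had a mean of at least 1 FPKM in either tissue and were tested with all 12880 such genes. Of the other 29 members, 7 were listed at 0 everywhere and 22 did not exceed 2.85 FPKM in a library. Limma called 3 members higher in the liver, against 28.6% of all genes tested, and 17 higher in the thymus, against 32.1%. In either direction the members called were 20 of 32, and the share over all genes was 60.7%, so the number of members called is close to the background. The members' median difference was -0.93, and that of all genes tested was -0.13. Of the 17 thymic calls, 13 passed the filter through the thymus alone, and 2 of the 3 liver calls through the liver alone, so these counts do not support a direction for the family. The other thymic calls were Ccl4, Ccl8, Ccl11, Ccr2, Ccr6, Cx3cl1 and Xcr1, none above 4.77 FPKM. The calls of Ccr2, Cx3cl1 and Xcr1 were lost without 1 or more of the mice. Rescaling every library to a common sum moved the median of all genes from -0.13 to -0.98, and the split of calls over all genes to 2080 higher in the liver and 7594 lower. Under that scaling, 3 members were higher in the liver and 22 were higher in the thymus, Cxcl12 stood at 0.70 ± 0.18 (adjusted p = 0.012), and Ccl27a, Ccrl1, Cxcl10, Cxcl16 and Cxcr5 joined the thymic calls.

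**Figure D2:**
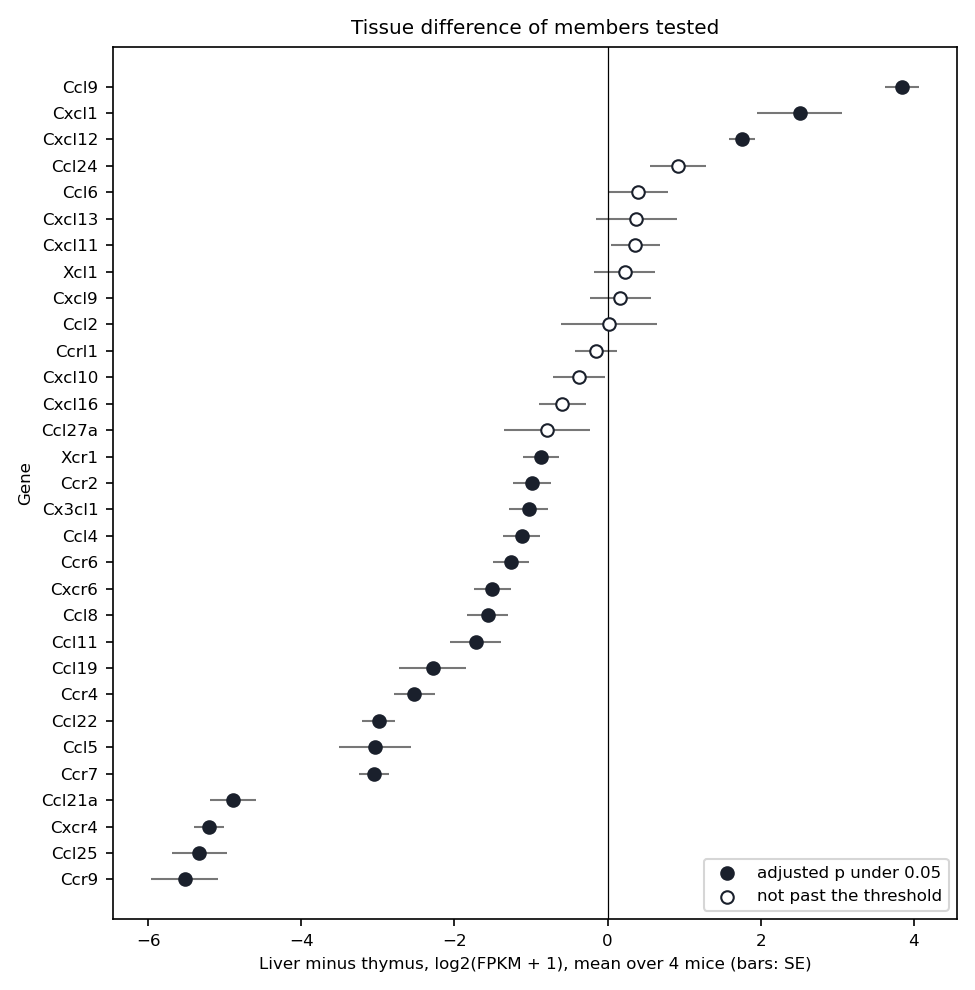
Liver minus thymus difference on the log2(FPKM + 1) scale (x axis) of members tested, as the mean over 4 mice with limma's moderated SE as a bar. Filled points passed limma's adjusted p of 0.05 and open points did not. Ccr9, Ccl25, Cxcr4 and Ccl21a lie between -5.52 and -4.89, and Ccl9, Cxcl1 and Cxcl12 are the filled points above 0.

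Among the members that did not pass between the organs were Ccrl1, Cxcl16 and Cxcl13. Ccrl1, an atypical receptor that removes Ccl19, Ccl21 and Ccl25, was 4.56, 3.53, 3.42 and 4.71 FPKM in the thymus and 4.79, 1.21, 4.08 and 5.34 FPKM in the livers (difference -0.16 ± 0.27, adjusted p = 0.64). Cxcl16, the transmembrane ligand of Cxcr6, was 5.04, 4.41, 6.47 and 4.00 FPKM in the thymus and 5.96, 3.34, 3.22 and 0.85 in the livers (-0.59 ± 0.31, adjusted p = 0.14). Cxcl13, the B cell ligand of Cxcr5, was 0.91, 9.23, 1.54 and 1.00 FPKM in the thymus and 4.44, 4.21, 0.58 and 5.30 in the livers. The high thymus value of Cxcl13 came from the MSM untreated library, the one with lymph node, airway and hepatocyte RNA, and the part of that RNA in the value was not tested. A missed threshold does not show that these levels were equal, and with every library rescaled to a common sum Ccrl1 (-1.0, adjusted p = 0.014) and Cxcl16 (-1.42, adjusted p = 0.0046) passed as lower in the liver.

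The liver values of thymic members can be set against thymocyte genes of the same mouse. In the B6 untreated mouse the liver level of Ccr9 was 3.86% of the thymus level, that of Cxcr4 2.06%, that of Ccl25 2.56% and that of Ccl21a 3.01%. In the same mouse the liver level of Cd3g was 2.45%, of Rag1 1.69% and of Prss16 1.51% of the thymus level. In the MSM injected mouse Ccl25 stood at 2.69% and Cxcr4 at 2.78%, whereas Ccr9 was 0.179%, Prss16 0.160% and Rag1 0.257%, and Cd3g was listed at 0 in the liver. Relative to the thymus, Ccr9, Cd3g, Rag1 and Prss16 were highest in the B6 untreated liver. Of 15 thymic epithelial genes only 3 were highest there (Prss16, Psmb11 and Tbata), and Krt5, Krt14 and Epcam were among those that were not. Of the members, Ccl25 was highest in the MSM untreated mouse (3.15%), Cxcr4 in the MSM injected one, and Ccr7 in the B6 injected one (4.81%), while Ccl21a stood at 3.01% in the B6 untreated and 3.03% in the MSM injected mouse. In those livers about 5 fragments were behind Ccl25, 8 behind Cxcr4, 2 behind Ccr7, and 2.8 and 1 behind Ccl21a. Ccr9 in the B6 untreated liver rested on about 22.2. The order of the mice is thus uncertain for the members with so few fragments. The part of thymic or blood RNA in these liver values was not tested.

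The strain comparison asked which members differed between MSM and B6 in each organ, with treatment as a block. The residual spread of a gene is how far its strain difference varied between the untreated and the injected mice. No combination of strain, organ and treatment had a replicate. With 1 residual degree of freedom, limma's moderation draws this spread towards that of genes of like level. For Ccr9 in the liver the differences were -1.37 (untreated) and -1.21 (injected), and its SE was 0.42. The SE and p thus do not measure that variation for a single gene. No member passed the threshold: limma called 0 of 19 members in the liver, against 1.47% of 10971 genes, and 3 had an unadjusted p under 0.05, against 16.2% of genes. In the thymus it called 0 of 27 members, against 0.973% of 11610 genes, and 5 had an unadjusted p under 0.05, against 13% of genes.

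In the thymus the smallest p belonged to Cxcl10, an interferon-induced ligand of Cxcr3. Cxcl10 was 11.6 and 7.60 FPKM in the B6 thymus libraries (untreated and injected) and 1.18 and 1.79 FPKM in the MSM ones, about 35.7, 22.7, 3 and 4.9 fragments. Both MSM values lay below both B6 values, with a difference of -2.08 ± 0.34 and an adjusted p of 0.064. It passed with 0.1 added in place of 1 (adjusted p = 0.0081) and with robust moderation (0.0098), and over the other settings its adjusted p ran from 0.059 to 0.68. Ifngr1, a chain of the interferon gamma receptor upstream of this ligand, was 94.9 and 68.2 FPKM in B6 and 17.0 and 17.9 FPKM in MSM thymus, and passed (-2.14 ± 0.25, adjusted p = 0.020).

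The other members with an unadjusted p under 0.05 in the thymus were Ccl19, Ccl21a, Ccl11 and Ccl5. Differences were -1.05 ± 0.27 for Ccl19, -0.90 ± 0.25 for Ccl21a and -1.08 ± 0.36 for Ccl11, the last being a ligand of the eosinophil receptor Ccr3. Ccl5 was 0.94 ± 0.27 higher in MSM, at 16.2 and 11.7 FPKM against 6.18 and 7.22 in B6. Adjusted p-values of these 4 were 0.19 to 0.30. Both MSM thymus values lay below both B6 values for 8 of 27 members (Ccl11, Ccl21a, Ccl22, Ccl25, Ccr4, Cx3cl1, Cxcl10 and Cxcl16), against 22.3% of all genes tested, and above for 2 (Ccl5 and Cxcr6), against 23.1%.

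In the liver the members with an unadjusted p under 0.05 included Cxcl9 and Ccr9. Cxcl9, like Cxcl10 an interferon-induced Cxcr3 ligand, was 3.60 and 3.49 FPKM in the B6 livers and 0.85 and 0.47 FPKM in the MSM livers (-1.46 ± 0.40, adjusted p = 0.20). Ccr9 differed by -1.29 ± 0.42 (adjusted p = 0.25). Both MSM livers lay below both B6 livers for 5 of 19 members (among them Ccl6, Ccr9, Cxcl9 and Cxcl10), against 22.8% of genes tested, and above for 2 (Cxcl1 and Cxcl11), against 20.5%.

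Macrophage markers differed in the same direction between these livers. The sum of 16 macrophage and Kupffer cell genes was 562 and 275 FPKM in the B6 untreated and injected livers and 112 and 109 FPKM in the MSM ones, with Clec4f at 60.6 and 35.9 against 13.4 and 11.6. In the strain fit, 2 of the 15 such genes tested passed (Lyz2 and Csf1r, both lower in MSM), against 1.47% of all genes. Lymphocyte genes summed to 30.4 and 8.83 FPKM in the B6 livers and 4.88 and 2.80 in the MSM livers. Whether these cells carry the differences of Cxcl9 and Ccr9 was not tested.

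**Figure D3:**
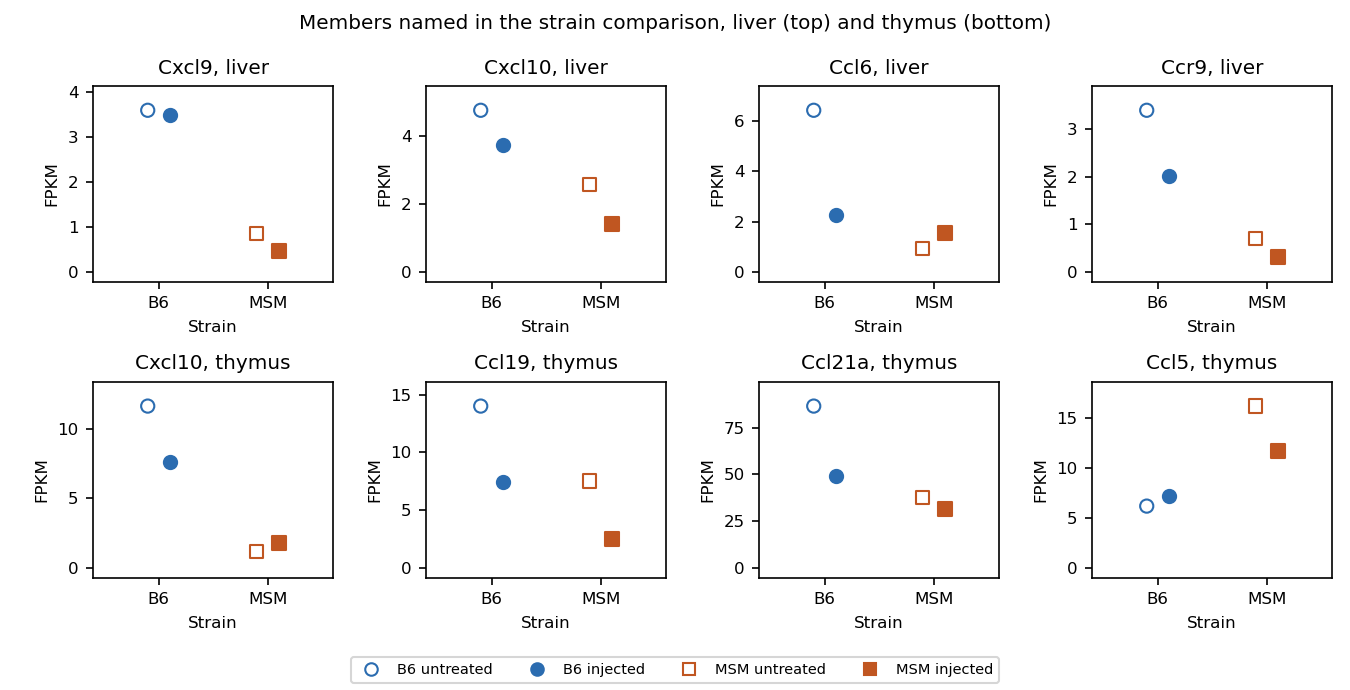
FPKM of 4 members in the liver (top) and 4 in the thymus (bottom) by strain; each point is 1 library, open untreated and filled injected, and no error bar is possible with 1 library per group. For Cxcl9, Cxcl10, Ccl6 and Ccr9 in the liver and for Cxcl10 and Ccl21a in the thymus both MSM points lie below both B6 points, and for Ccl5 in the thymus they lie above; none passed the adjusted threshold.

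Strain differences could be compared between the organs through each mouse's own ratio of liver to thymus. Limma called 0 of 32 members there, against 0.365% of genes tested, and 4 had an unadjusted p under 0.05 (Ccr9, Cxcl9, Ccl5 and Cxcl10), against 12.6%. Ccr9 was lower in MSM in the liver and higher in MSM in the thymus, with a ratio difference of -1.75 ± 0.38 (adjusted p = 0.19). Its thymus difference was only 0.03 between the untreated mice and 0.88 between the injected mice.

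The injected mice were set against the untreated mice of the same strain and organ. Untreated and injected libraries are in separately normalized tables and each is a single mouse, so treatment, table and mouse cannot be told apart and no test was made. Differences were centred on the median of the genes compared, and a change of 2-fold on the log2(FPKM + 1) scale was counted. Genes compared had a mean of at least 1 FPKM over an organ's libraries. A gene high in 1 library alone can pass this filter, so the counts below partly follow the filter. The authors' own intervals start at 0 for all 285 member values above 0, and for at least 99.98% of values above 0 of all genes, so they overlap in all 92 comparisons of members and separate none.

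The largest differences of the family were in the MSM liver. Cxcl1 (chr5:90891241-90893115) was 3.87 FPKM in the untreated and 36.6 FPKM in the injected MSM liver, about 5 and 43.3 fragments, against 3.26 and 2.98 FPKM, about 4 and 4 fragments, in the B6 livers. Ccl2 (chr11:82035571-82037453), the monocyte attractant, was listed at 0 in the untreated and was 10.5 FPKM in the injected MSM liver, about 10.1 fragments. In the B6 livers Ccl2 was 1.01 FPKM untreated, about 1 fragment, and listed at 0 injected; 3 fragments would correspond to 2.73 to 3.12 FPKM in a liver. For both ligands 1 library, the MSM injected liver, was high and the other 3 were low.

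Centred differences in the MSM liver were 2.92 for Cxcl1 and 3.51 for Ccl2, and in the B6 liver -0.14 and -1.01. In the thymus neither changed by 2-fold in a strain, with Ccl2 at 0.98 to 1.44 FPKM. Cxcl2, a neutrophil attractant whose coding sequence is 75.6% identical to that of Cxcl1, was 2.17 FPKM in the MSM injected liver, about 3.1 fragments, and was listed at 0 in the other livers. Cxcl3 and Cxcl5, of the same group, were listed at 0 in every liver, and Ccl7, which like Ccl2 acts on Ccr2, was listed at 0 in both MSM livers.

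In the MSM liver 6 of 19 members were at least 2-fold higher in the injected mouse, against 6.78% of all genes. They were Ccl2, Cxcl1, Xcl1, Ccl27a, Ccrl1 and Cxcr4. Ccl2 passed the filter only through the injected MSM liver, where it was then counted as higher. Xcl1, a ligand released by T and natural killer cells, was listed at 0 in the untreated MSM liver and was 4.25 FPKM in the injected one, which is only about 2.2 fragments. Ccrl1 was 1.21 and 5.34 FPKM, and Cxcr4 0.72 and 3.16 FPKM. Ccl24 and Cxcl16 were at least 2-fold lower, 2 members against 7.04% of genes. With 5 in place of 1 added to FPKM, the 8 members past 2-fold in either direction were 2. Genes of other liver cells differed in the same pair of libraries. At least 2-fold higher in the injected MSM liver were 3 of 12 stellate and stromal genes, and 0 were lower. In the B6 livers 2 of the 12 were higher and 0 lower, against 6.68% and 6.08% of all genes. Col3a1 was 6.03 and 31.0 FPKM in the untreated and injected MSM livers and 8.85 and 7.67 in the B6 ones. Of 13 endothelial genes 1 was higher and 4 lower in MSM, and 1 was higher and 0 lower in B6. Their part in the members' differences was not tested.

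In the B6 liver the members moved otherwise. At least 2-fold lower in the injected mouse were 6 of 19 members (Ccl2, Ccl6, Ccl24, Ccl25, Cxcl13 and Xcl1), against 6.08% of genes, and 1, Ccl27a, was at least 2-fold higher, against 6.68%. Ccl6, a myeloid CC ligand, was 6.41 and 2.25 FPKM in the B6 untreated and injected livers, and Xcl1 was 6.10 FPKM, about 3.2 fragments, and then listed at 0. The B6 values of Ccl2 rest on about 1 fragment. Ccl24 passed the filter only through the B6 untreated liver, against which it was then counted as lower. Sums of leukocyte genes also differed between the injected and untreated B6 livers. Macrophage genes, a list that holds the member Ccr2, were at 275 against 562 FPKM and lymphocyte genes at 8.83 against 30.4. B cell and node genes were at 4.23 against 8.94. Dendritic genes, a list with the members Ccl17, Ccl22, Ccr7 and Xcr1, were at 166 against 201, of which Bst2 alone made up 159 and 195. Of 4 dendritic genes tested, 1 was at least 2-fold higher and 0 were lower, so the lower sum is that of Bst2. Neutrophil genes went the other way, at 39.7 against 23.7. Of 7 thymocyte genes tested, 4 were at least 2-fold lower and 0 higher, with Rag1 at 0.60 against 9.88 FPKM. The sum of the thymocyte list was 206 against 198 FPKM, with Cd1d1 at 164 against 135. Of 6 thymic epithelial genes tested, 1 was at least 2-fold lower and 0 were higher. The part of these cells, or of thymic RNA, in the members' lower values was not tested.

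Members that moved the same way in both strains were few. In the liver, Ccl27a was at least 2-fold higher in both strains, 1 of 19 members against 1.68% of genes, at 1.33 and 4.16 FPKM in B6 and 0 and 3.38 in MSM. These values rest on only about 1.1 and 4 fragments in B6 and 0 and 2.8 in MSM. Ccl27a, a skin ligand of Ccr10, has a near copy, Ccl27b, which was listed at 0 in every library, so its value is uncertain. Ccl24, an eosinophil attractant made by macrophages, was at least 2-fold lower in both, 1 of 19 against 1.24%, at 3.92 and 1.02 FPKM in B6 and 1.06 and 0 in MSM, about 7, 2, 2 and 0 fragments. Ccl24 passed the filter only through the B6 untreated liver, so its call in B6 partly follows from the filter. In the thymus 0 of 27 members were 2-fold higher in both strains, against 0.276% of genes, and 0 were 2-fold lower, against 0.422%.

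In the B6 thymus 0 members were at least 2-fold higher in the injected mouse, against 2.12% of genes, and 2 were lower (Cxcl9 and Xcl1), against 1.73%. Xcl1 passed the filter only through the B6 untreated thymus, at 3.87 FPKM, against which it was then counted as lower. In the MSM thymus 1 was higher (Xcl1), against 2.09%, and 3 were lower (Ccl19, Ccl27a and Cxcl13), against 9.01%. Cxcl13 went from 9.23 to 1.00 FPKM in the MSM thymus, about 24.7 and 2.9 fragments, and the hepatocyte, airway and lymph node genes of the untreated library went in the same direction, as given above. The abundant thymic members Ccl25, Cxcr4, Ccr9 and Cxcl12 did not reach 2-fold in either strain. The nearest were Ccr9 and Ccl25 in MSM, at centred differences of 0.87 and 0.79, against 0.04 and 0.26 in B6. In the same pairs the median of 14 thymocyte genes was 0.42 in MSM and 0.03 in B6, and that of 15 thymic epithelial genes 0.07 and 0.08. The MSM pair includes the untreated library with hepatocyte, airway, adipose and lymph node RNA. The part of that RNA in the differences of Ccr9 and Ccl25 was not tested.

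**Figure D4:**
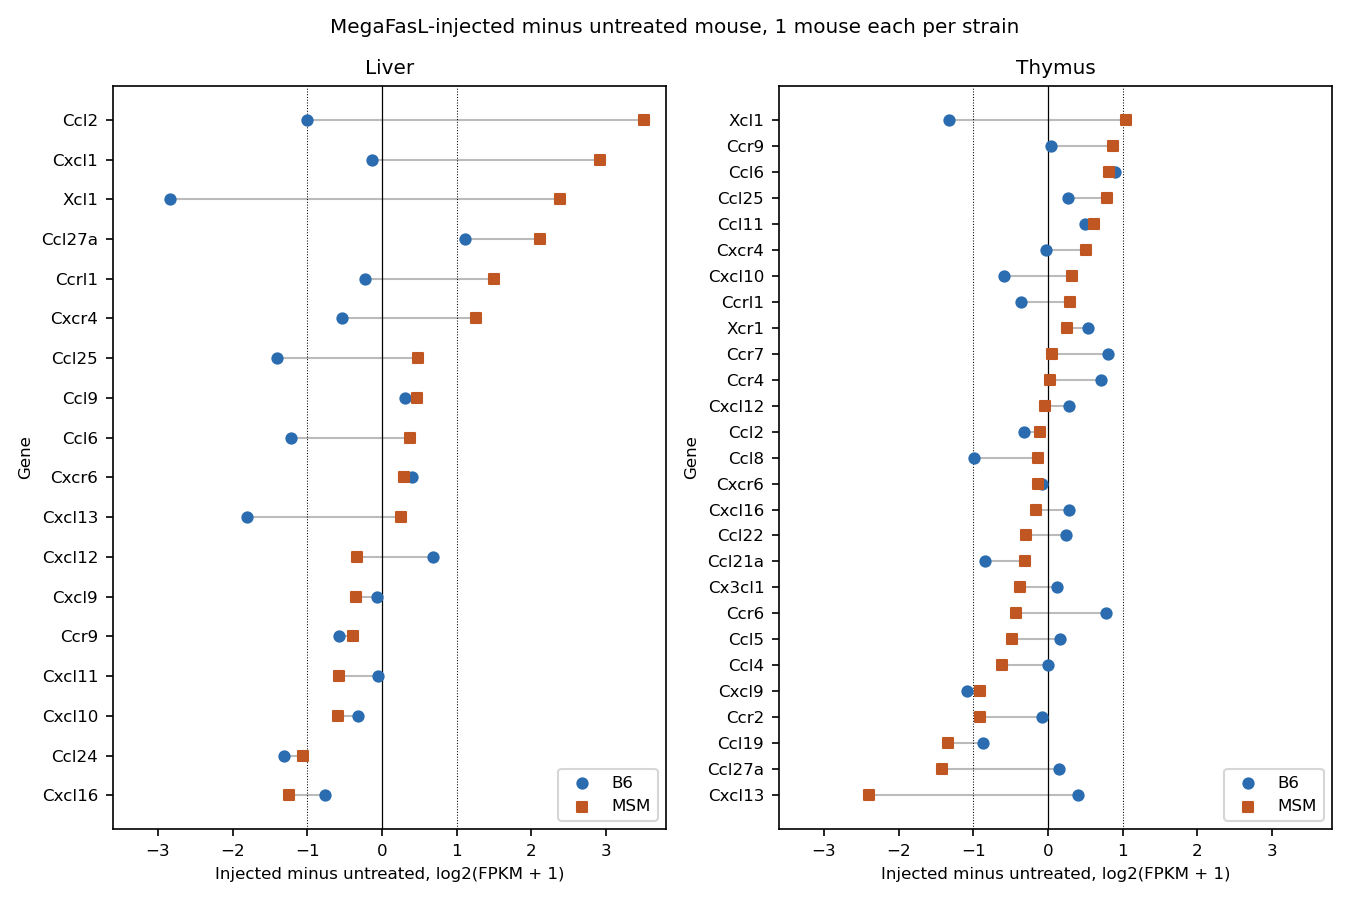
Injected minus untreated difference on the centred log2(FPKM + 1) scale (x axis) of members with a mean of at least 1 FPKM in the liver (left) or the thymus (right); circles are B6, squares MSM, each from 1 injected and 1 untreated mouse, and dotted lines mark 2-fold. Ccl2 (3.51) and Cxcl1 (2.92) lie farthest right, for MSM in the liver only.

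A change between treatments that differed between the organs could be tested within tables. For the injected minus untreated difference of this ratio, limma called 0 of 32 members, against 0.0388% of genes, and 3 had an unadjusted p under 0.05 (Ccl27a, Cxcl16 and Ccr9), against 7.56%. That of Ccl27a was 2.24 ± 0.69 (adjusted p = 0.59). This fit averages the strains, and for Ccl2, high in 1 strain alone, the value was 1.45 ± 1.05 (adjusted p = 0.78).

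Neutrophil genes were measured beside these ligands. The sum of 14 neutrophil genes was 7.43 FPKM in the MSM untreated liver and 36.8 in the MSM injected one, and 23.7 and 39.7 in the B6 livers. S100a8, an abundant neutrophil protein, was 3.05 and 16.8 FPKM in MSM and 9.63 and 20.5 in B6, whereas the granule genes Mpo, Camp and Mmp8 were at 0 to 0.27 FPKM in every liver. In the MSM injected liver 9 of the 14 genes were listed at 0. S100a8, S100a9 and Lcn2 made up most of these sums and together were 7.09 and 35.7 FPKM in MSM and 17.9 and 36.0 in B6. In the B6 liver 3 of the 14 genes were higher and 6 lower in the injected mouse, with Csf3r at 0.90 and 0.30 FPKM and Elane at 0.85 and 0. At least 2-fold higher in the injected liver were 3 of the 4 genes that passed the liver filter in MSM and 1 of 4 in B6. The relation of these genes to Cxcl1 was not tested.

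Genes upstream and downstream of the family were counted in the same way. Of 29 genes for cytokines, receptors and transcription factors known to induce chemokines, 18 were measured in the liver, and 6 of these were at least 2-fold higher in the MSM injected liver, against 6.78% of all genes, and 0 lower, against 7.04%, with a median of 0.42 against 0 for all genes. Il6ra was 9.75 and 52.2 FPKM, Tnfrsf1b 7.23 and 24 and Il1r1 3.69 and 16.0 in the untreated and injected MSM livers. The cytokines Il1a (0.65 and 6.46 FPKM), Tnf (0.82 and 4.49) and Csf1 (1.20 and 5.15) completed the 6 and are named here after their values were seen. Tnf passed the filter only through the injected MSM liver, where it was then counted as higher. In the B6 liver 2 were higher, against 6.68%, and 1 lower, against 6.08%, with Il6ra at 6.59 and 29.7 FPKM and Tnf listed at 0 in both mice.

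Of 40 genes that carry the signal from the receptors, 39 were tested between the organs, and limma called 27 higher in the thymus, against 32.1% of all genes tested, and 2 higher in the liver, against 28.6%. Their median difference was -1.47, against -0.13 for all genes. Of the 39 genes, 13 passed the filter through the thymus alone, among them 12 of the 27 called, so this count and median do not support a direction for the list. Rac2, a leukocyte GTPase, differed by -4.25 ± 0.22, and Vav1 and Dock2, exchange factors that activate such GTPases, by -4.12 ± 0.24 and -4.10 ± 0.23. No signalling gene passed in the strain fit of either organ (limma called 0 of 26 in the liver and 0 of 38 in the thymus, with 2 and 7 at an unadjusted p under 0.05, against 16.2% and 13% of all genes).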

How the data were processed

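Polyadenylated RNA libraries of 4 livers and 4 thymi were used, 1 per combination of strain, organ and treatment. Per the submitters' processing notes, the authors used TopHat, Cuffdiff 2.2.1 and mm10, and deposited gene FPKM with intervals, in 1 table for untreated and 1 for injected mice, treated here as normalized separately. The annotation and the duplicate handling are not given in the sources used here. MSM reads were aligned to a B6-based reference. Depth was estimated from single-transcript genes whose values became whole fragments within 0.1 in 67.8% to 72.3% of cases (20% by chance), and fragment numbers are estimates.

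Levels were compared as log2(FPKM + 1) for genes averaging 1 FPKM or more. Tests were two-sided moderated fits with a trended prior in limma 3.58.1 (R 4.3.3), and p-values were adjusted after Benjamini and Hochberg over all genes tested, with a threshold of 0.05. Strain fits had treatment as a block (1 residual degree of freedom), and liver minus thymus had mouse as a block. The fits were tested on simulated data. Only 1 mouse stands for each strain and treatment, so p-values do not measure the spread among like mice.

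Members named in full passed a fit, reached 5 FPKM in a library, changed 2-fold the same way in both strains while reaching 3 FPKM, or were Cxcl1, Ccl2, Ccl25 or Ccr9; others are named as examples of their role. From the other lists, up to 4 genes with the largest difference and a mean of at least 5 FPKM were named, unless stated. The members and the gene lists were chosen with earlier results of these data known. Alternatives changed the added value, the filter, the scaling, the moderation, the block, the fold and the libraries; leaving out the MSM untreated thymus or the B6 untreated liver was chosen after seeing the data. Sequences and positions come from GENCODE M21, in which 60 of the 61 symbols had a transcript. Values of 1 member are not reported here, although the counts include it.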

Additional observations from a re-analysis of the deposited data

Results flagged for a closer look

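For 2 of the 14 members tested in both organs, differences had opposite signs in liver and thymus. The share of all genes with such signs was not counted, so this number has no background beside it. Every liver pair of Ccr9 was lower in MSM and every thymus pair was higher, giving a difference between the organs of -1.75 (limma adjusted p = 0.19). The thymus part was only 0.03 between the untreated mice and 0.88 between the injected mice. Ccr9 was also lower in the injected mouse in both livers and higher in both thymi, with a difference between the organs of -0.94 on the centred scale (-0.96 in the fit, adjusted p = 0.66). In the thymus Ccr9 was higher by only 0.04 in B6 and by 0.87 in MSM. For Cxcr6 the strain difference was lower in MSM in both livers and higher in both thymi, with a difference of -0.60 (adjusted p = 0.61). Between injected and untreated mice Cxcr6 was higher in both livers and lower in both thymi, with a difference of 0.45 (0.44 in the fit, adjusted p = 0.84). None of these passed the threshold of the limma fit on the liver minus thymus ratio.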

How the results depend on the processing

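The count of members called between liver and thymus was 20 and lay between 17 and 20 when each mouse was left out. A filter of 5 FPKM left 14 members to test and 13 calls. Without the MSM untreated thymus library the count was 20, and without the B6 untreated liver 18. The strain and ratio fits called 0 members in every leave-one-out fit (0 to 0), where a lone library is assumed to vary like the others, and the thymus strain fit called 1 (Cxcl10) with 0.1 added and 1 with robust moderation. No result reversed. Counts of 2-fold differences depended on the settings, and the cause was not tested. With 0.1 added they were 5 in the B6 thymus (2 as reported), 9 in the MSM thymus (4 as reported) and 2 in both strains (0 as reported). With 5 added they were 0 and 1 in the B6 and MSM thymus, and 1, 2 and 0 in the B6 liver (7 as reported), the MSM liver (8 as reported) and both livers (2 as reported). With a common sum they were 4 in the B6 thymus, 1 in both thymi and 1 in both livers. A threshold of 1.5-fold gave 10, 11 and 3 in the B6, MSM and both thymi, and one of 4-fold gave 0 and 1 in the B6 and MSM thymus and 1, 4 and 0 in the B6, MSM and both livers. Depth limits the liver most, where 3 fragments of Ccl2 correspond to 2.73 to 3.12 FPKM.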

Other observations

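Cxcr3, the receptor of Cxcl9, Cxcl10 and Cxcl11 on effector T and natural killer cells, was present in every B6 library and listed at 0 in every MSM library. It was 1.44 and 0.84 FPKM in the B6 untreated and injected thymus and 0.87 and 0.40 FPKM in the B6 livers. Of 11199 genes above 0 in all 4 B6 libraries, 30 (0.268%) were listed at 0 in all 4 MSM libraries, and Cxcr3 was the 1 among 20 such members. In the other direction 14 of 10997 genes, and 0 of 18 members, were above 0 in all MSM and at 0 in all B6 libraries. Cxcr3 was singled out after its values were seen, 3 fragments of it correspond to 0.571 to 1.25 FPKM, and MSM reads were aligned to a B6-based reference.

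A further list of chemokine, receptor and chemokine-like genes, mostly under other symbols but including the member Cxcr7, held 13 in the tables. Of these, 9 were tested between the organs. Rarres2, the precursor of chemerin, was 665 to 1077 FPKM in the livers and 2.35 to 35.0 in the thymus, and Cd74, a receptor of Mif, was 33.8 to 80.8 FPKM in the livers and 262 to 448 in the thymus. Of these 9 genes limma called 3 higher in the liver, against 28.6% of all genes tested, and 2 higher in the thymus, against 32.1%.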
